A study of Canis lupus familiaris with 51 samples.

Results

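Canine hemangiosarcomas of the spleen, heart and liver differed from one another most along 1 axis of gene expression, and the 150 genes described here form the end of that axis with the most positive loadings. In spleen 7, the tumour where they were highest, 144 of the 150 genes reached 10 FPKM, and in heart 4, where they were lowest, 8 did (FPKM counts sequenced fragments per length of transcript and depth of library). They were chosen by a principal component analysis of 46 tumours (spleen, heart and liver labels) on gene-centred, unscaled log2(FPKM + 1) values of the 12887 genes that reached 1 FPKM in at least 3 of those tumours, out of 16382 genes in the table. The 150 genes with the highest loading on the first component were taken, with the sign set so that spleen 7 scored positive. The first component carried 23.1% of the variance. The choice therefore used the level of every gene in all 46 tumours, and the levels along the axis are a description with no test.

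The study profiled RNA of 51 hemangiosarcomas from dogs and no normal tissue. The labels place 32 tumours in the spleen, 11 in the heart and 3 in the liver, and 5 carry a label of their own: undetermined histogenic origin, cutaneous, metastatic tumor, a metastatic abdominal mass and an abdominal mass. No treatment, genotype or cultured line is named, and the numbers after a tissue name (spleen 7, heart 5) only identify a tumour. The splenic tumours came from 11 spayed and 5 intact females and 9 neutered and 7 intact males, aged 3.0 to 13.6 years (median 10.15), 20 of them Golden Retrievers. The cardiac tumours came from 1 spayed and 2 intact females and 5 neutered and 3 intact males, aged 5.9 to 11.2 years (median 9.1), 6 of them Golden Retrievers. The hepatic tumours came from 2 spayed females and 1 intact female aged 9.6 to 10.9 years (median 10.0), 1 of them a Golden Retriever. The dogs of the 5 single labels were 0.7 (undetermined origin), 10.7 (cutaneous), 11.3 (metastatic tumor), 9.0 (metastatic abdominal mass) and 8.7 years old (abdominal mass). Sample titles begin with CHAD in 5 splenic and 1 cardiac tumour and with DHSA in all others; the labels do not say what these prefixes mean.

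Hemangiosarcoma is a malignant tumour whose cells form blood-filled, vessel-like spaces, and in dogs it arises most often in the spleen, the right atrium of the heart, the liver and the skin. A piece of such a tumour holds malignant cells together with blood, stroma, immune cells and parenchyma of the host organ, and bulk RNA sequencing reads them all at once. For every value below, fewer cells of a type and less RNA per cell cannot be told apart. A principal component is a weighted sum of genes that captures the widest spread among samples, so the genes with large loadings are those that vary widely and together. The genes are given by Ensembl identifier because neither the files nor the reference table used here pairs these identifiers with symbols, so the genes' functions and the markers of the labelled tissues were not assessed.

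The 150 genes were not unusually abundant on average, but their range between tumours was wide. Their mean over the 46 tumours ran from 3.38 to 2126 FPKM with a median of 15.8 FPKM, against a median of 13.8 FPKM over all genes past the filter. Of the 150 genes, 19 had a mean of at least 100 FPKM and 46 had a mean under 10 FPKM. From its lowest to its highest tumour the typical gene of the set spanned 6.23 on the log2(FPKM + 1) scale (4.43 to 13.15 over the set), where the median over all genes was 2.46. The 150 genes with the most negative loadings had a higher median mean level, 29.7 FPKM, and a median span of 5.91. Wide spread was part of what the loading selects, so these figures describe the choice.

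High levels in some tumours stood beside absence in others. In the tumour where it was highest, the median gene of the set reached 110 FPKM, while its median over the 46 tumours was 3.92 FPKM. The median of 27 genes lay under 1 FPKM. A gene of the set reached 10 FPKM in 3 to 46 tumours, with a median of 16 tumours. At least 1 tumour was listed at 0 for 51 of the 150 genes (34.0%), for 12.8% of all genes and for 10.0% of the negative-loading genes. Only 26 of the 150 (17.3%) reached 1 FPKM in every tumour, against 69.0% of all genes and 42.7% of the negative-loading genes. The highest values were spread over 16 tumours: spleen 7 held the maximum of 35 genes, spleen 19 of 27, spleen 27 of 17, spleen 29 of 12, and spleens 18 and 28 of 11 each. In spleen 27 the 10 most abundant genes took 29.96% of summed FPKM, the largest such share of the 46 tumours.

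**Figure D1:**
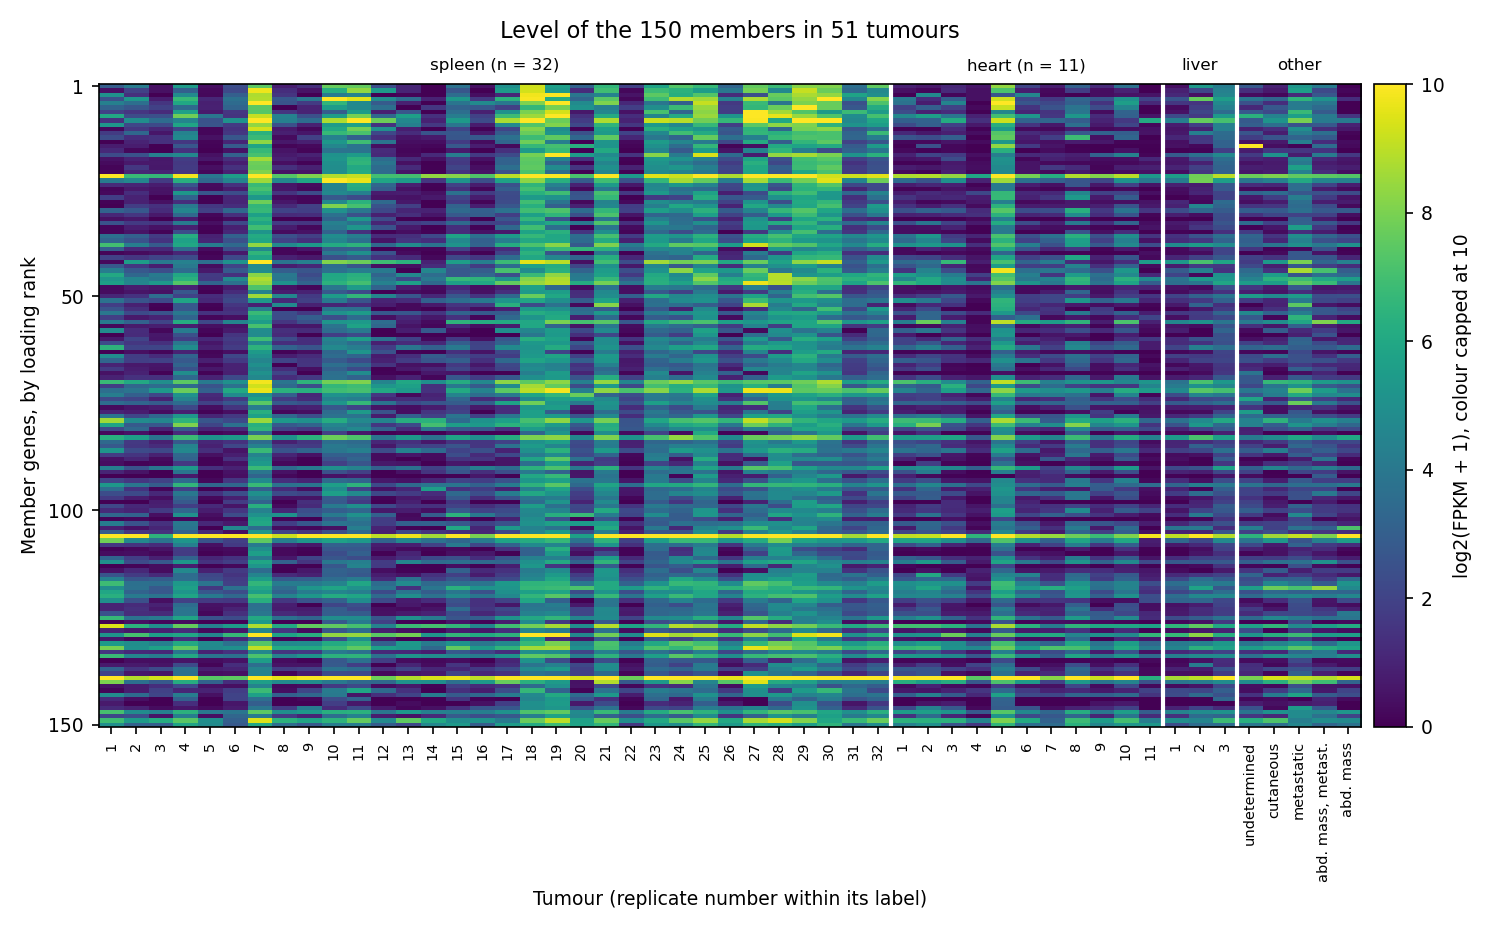
Level of each of the 150 genes (rows, by loading rank) in each of the 51 tumours (columns, grouped by tissue label), as log2(FPKM + 1) with the colour capped at 10. The same columns are bright from the top to the bottom of the map, most of them splenic tumours, with heart 5 the bright column among the cardiac tumours.

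Along the axis the spread within the spleen label was wider than the distance between tissue means. The mean level of the 150 genes, on the log2(FPKM + 1) scale, was 3.6 ± 1.59 (SD, n = 32) in the splenic tumours, from 1.3 in spleen 5 through a median of 3.23 to 6.23 in spleen 7. In the cardiac tumours it was 2.44 ± 1.2 (SD, n = 11), from 0.99 in heart 4 through a median of 2.22 to 5.45 in heart 5. Heart 5 stood apart from the other cardiac tumours, since the next highest, heart 8, was at 3.24. The 3 hepatic tumours were at 1.68, 2.46 and 3.18, with a mean of 2.44 ± 0.75 (SD, n = 3). All 3 tissue ranges overlapped: heart 5 ranked above all but 5 splenic tumours, and spleen 5 lay below every hepatic tumour.

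Counts of genes per tumour showed the same contrast in plainer terms. Spleen 18 had 146 of the 150 genes at 10 FPKM or more, spleens 7 and 29 had 144 each, and heart 5 had 127. Heart 4 had 8 and spleen 5 had 18. The median was 56 genes in the splenic and 39 in the cardiac tumours, and the hepatic tumours had 26, 43 and 52. The 150 genes together made up 0.13% of all summed FPKM in heart 4 and 6.76% in spleen 29, with 4.12% in heart 5.

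**Figure D2:**
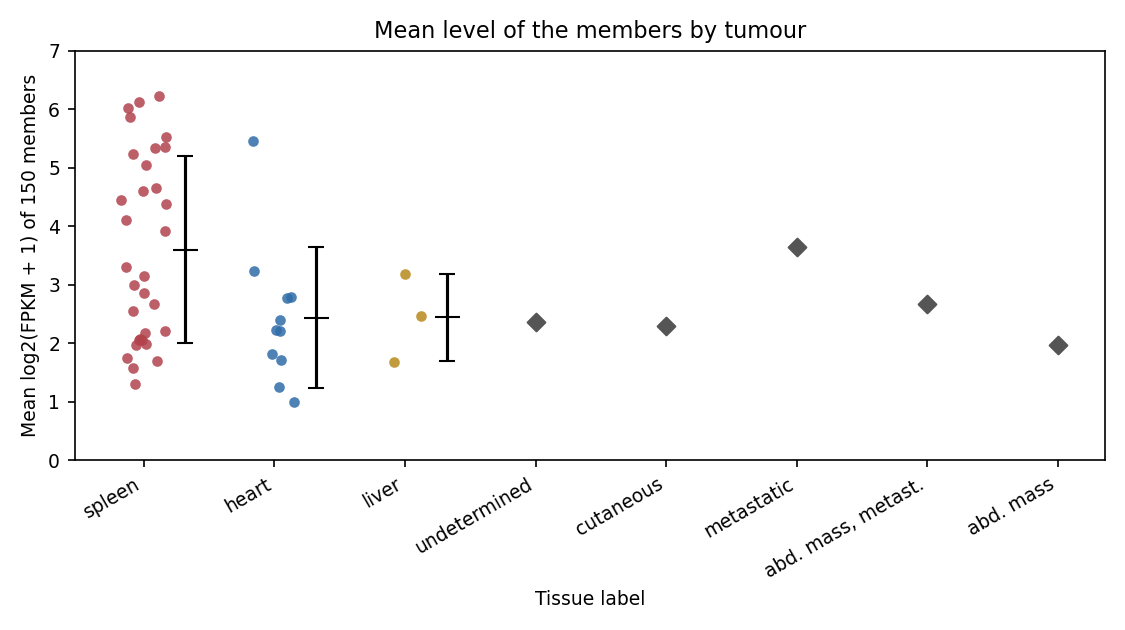
Mean log2(FPKM + 1) of the 150 genes in each tumour (points) by tissue label, with the mean and SD of the spleen, heart and liver groups as bars. The splenic points run from 1.3 to 6.23 and heart 5, at 5.45, sits well above the other cardiac points.

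The genes moved together across tumours, as the choice requires, and they did so within the splenic and within the cardiac tumours as well. No correlation within the hepatic tumours is given. The mean correlation between pairs of the 150 genes was 0.71 over the 46 tumours, 0.71 over the 32 splenic tumours alone and 0.66 over the 11 cardiac tumours alone. The same mean over all genes was 0.004 in the 46 tumours and 0.006 in the cardiac tumours. Among the 150 negative-loading genes it was 0.55 in the 46 tumours and 0.4 in the cardiac tumours. Not every pair of the set moved together: the lowest pair was at 0.01 over the 46 tumours, -0.07 over the splenic and -0.44 over the cardiac tumours. Choosing 150 genes by the same rule from the splenic tumours alone returned 135 of the 150. In the cardiac tumours, which that choice did not use, those splenic-chosen genes had a mean pairwise correlation of 0.61 over 11 tumours, with levels from 0.97 in heart 4 to 5.25 in heart 5. The cardiac correlations include heart 5, which stood apart from the other cardiac tumours, and no value without it is given. Applied to the cardiac tumours alone, the rule kept fewer of the genes, as stated in the closing section. These correlations are descriptions: the points are values of 1 table with a shared normalization.

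At the chosen cut most of the set fell into a pair of sub-groups. Average-linkage clustering of the genes over the splenic tumours at a correlation of 0.7 gave a group of 94 genes and a group of 41 genes. The 15 genes in neither fell into 9 further clusters, the largest of 4 genes. Over the splenic tumours the mean correlation between the large groups was 0.66, little under the cut, and no other cut is given. Mean pairwise correlations over the 46 tumours were 0.77 within the 94 genes, 0.86 within the 41 and 0.66 between them. The 20 genes of highest loading held 10 from each group. The 41 genes had the wider typical span, 7.07 against 5.78 on the log2(FPKM + 1) scale, and a median mean level of 17.8 against 13 FPKM. Cutting the tree was done on the same splenic values, so the difference between the groups there is a description.

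The levels of the sub-groups differed in some tumours. In spleen 12 the 41 genes had a mean level of 3.64 and the 94 genes of 1.53, with 34 of 41 but only 4 of 94 genes above the median of the 46 tumours. Spleen 11 (6.44 against 4.03) and spleen 30 (2.19 higher for the 41 genes) leaned the same way, but both were high in either group, with all 41 and 91 of 94 genes above that median. The opposite order was seen in spleen 28, where the 41 genes were at 3.62 and the 94 at 5.89, with 40 and 94 genes above the median. It was also seen in heart 8, at 1.78 against 3.74. In heart 8, 75 of the 94 genes but only 6 of the 41 were above the median of the 46 tumours. Spleens 1 and 19 had the 41 genes lower by 1.79, which appears as a difference of -1.79. By tissue, the 94 genes were at 3.55 ± 1.57 in the splenic and 2.56 ± 1.27 in the cardiac tumours, and the 41 genes at 3.57 ± 2.06 and 1.85 ± 1.14 (SD, n = 32 and n = 11). The hepatic tumours were at 1.58, 2.1 and 3.11 for the 94 genes and at 1.65, 2.85 and 3.43 for the 41.

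**Figure D3:**
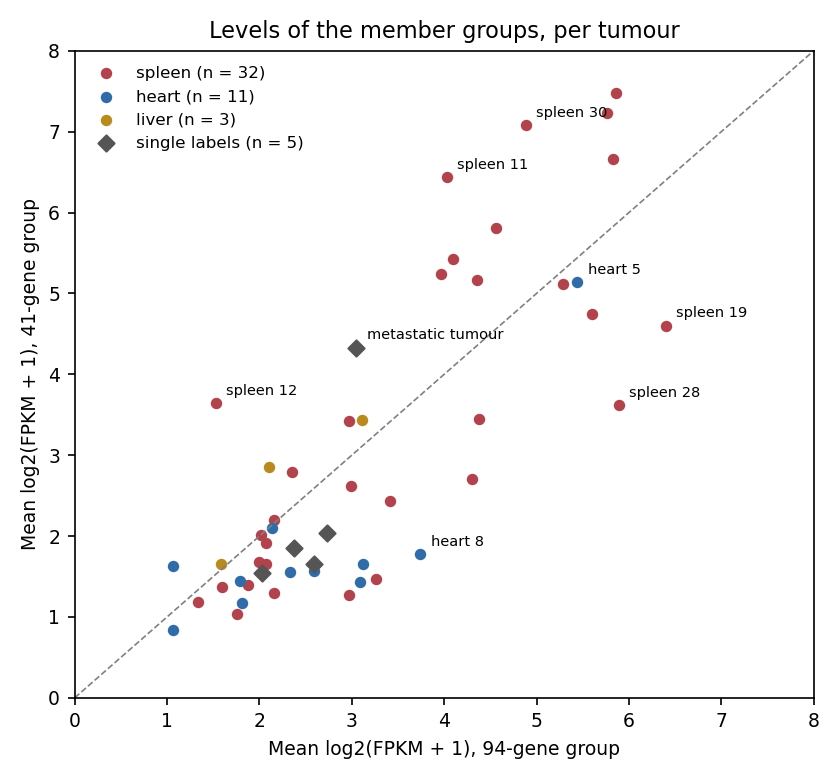
Mean log2(FPKM + 1) of the 94-gene group (horizontal) and the 41-gene group (vertical) in each tumour, coloured by tissue label, with the 5 single-label tumours as diamonds. Points far from the diagonal have unequal levels in the groups, such as spleen 12 (1.53 and 3.64) and heart 8 (3.74 and 1.78).

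The gene of highest loading, ENSCAFG00000019669 (loading 0.0613, in the 41-gene group), ran from 0 to 626.7 FPKM in the splenic tumours, with a median of 23.76 and its maximum in spleen 18. In the cardiac tumours it ran from 0 to 329.46 FPKM in heart 5, with a median of 1.129 and a second highest value of 12.05 in heart 10. The hepatic tumours were at 0.308, 41.203 and 17.477 FPKM. Of the splenic tumours, 19 of 32 reached 10 FPKM and 11 reached 100 FPKM, against 2 of 11 cardiac tumours at 10 FPKM, and the ranges overlapped. The heart minus spleen difference was -2.48 ± 0.93 (SE) on the log2(FPKM + 1) scale, with a limma adjusted p of 0.338.

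ENSCAFG00000008702, of loading rank 2 (0.0608) and also in the 41-gene group, had a splenic range of 0 to 860.13 FPKM, with a median of 19.441 and its maximum in spleen 7. Its cardiac median was 0.352 FPKM, and heart 5 at 144.74 stood far from the next value, 2.56 in heart 8. The hepatic tumours were at 0.853, 3.332 and 19.804 FPKM. Of the 32 splenic tumours, 6 exceeded every cardiac tumour, and 22 exceeded every cardiac tumour other than heart 5. The heart minus spleen difference was -2.9 ± 0.97 (SE), the most negative of the set, with a limma adjusted p of 0.287.

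The gene of highest loading in the 94-gene group, ENSCAFG00000007063 (rank 3, picked after its values were seen), behaved differently in heart 5. Its splenic range was 0 to 982.45 FPKM with a median of 15.748 and its maximum in spleen 19. The cardiac median was 0.38 FPKM, the highest cardiac values were 25.66 in heart 2 and 23.21 in heart 6, and heart 5 had 5.08. In the liver it measured 1.227, 0.372 and 22.4 FPKM. The heart minus spleen difference was -2.7 ± 1.0 (SE), with a limma adjusted p of 0.335.

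The most abundant gene of the set, ENSCAFG00000017557 (rank 106, mean 2126 FPKM, in the 41-gene group), was present in every tumour. In the splenic tumours it ran from 50.848 FPKM in spleen 20 through a median of 1406.35 to 14073.2 in spleen 24. Cardiac values ran from 90.344 in heart 4 through a median of 475.261 to 3358.54 in heart 5, and the hepatic tumours had 525.833, 7034.56 and 459.693 FPKM. Spleen 24 ranked 14 of 51 tumours by the mean level of the set, so the tumour highest in this gene was not among the highest in the others. Of 32 splenic tumours, 8 exceeded every cardiac tumour, and the difference was -1.6 ± 0.6 (SE) with a limma adjusted p of 0.338.

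ENSCAFG00000006126 (rank 68, in the 94-gene group) had the smallest p of the set between heart and spleen. It was nearly silent in the heart, with a median of 0.051 FPKM and a maximum of 0.34 in heart 5, while the splenic tumours ran from 0 through a median of 1.523 to 54.11 FPKM in spleen 29. The hepatic tumours were at 0, 0.22 and 2.048 FPKM. Of the splenic tumours, 23 of 32 exceeded every cardiac tumour, a limit of only 0.34 FPKM. Many splenic tumours were low as well: 15 of 32 were under 1 FPKM and 12 reached 10 FPKM. The difference was -2.18 ± 0.61 (SE), with p = 0.000846 and an adjusted p of 0.147 by limma, so it did not pass the threshold over all genes. It was also 1 of only 2 genes of the set that were not above the median of the 46 tumours in heart 5; the other, ENSCAFG00000014924 (rank 92, singled out after its values were seen), was listed at 0 there. That gene reached 103.6 FPKM in spleen 19 and at most 1.312 FPKM in any cardiac tumour.

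The widest span of the set, 13.15 on the log2(FPKM + 1) scale, belonged to ENSCAFG00000014432 (rank 6, singled out after its values were seen). It was at 9091 FPKM in spleen 29, at 576.3 FPKM in the next tumour, heart 5, and listed at 0 in its lowest tumour, with a median of 7.85 FPKM. At the edge of the set the ranks were close. The last gene inside, ENSCAFG00000008234 (rank 150, loading 0.0281, mean 35.3 FPKM), spanned 5.19 on the log2(FPKM + 1) scale, and the first gene outside, ENSCAFG00000015475 (loading 0.0281), spanned 6.19. Over the set the correlation of a gene with the component score ran from 0.59 to 0.92, with a median of 0.8.

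**Figure D4:**
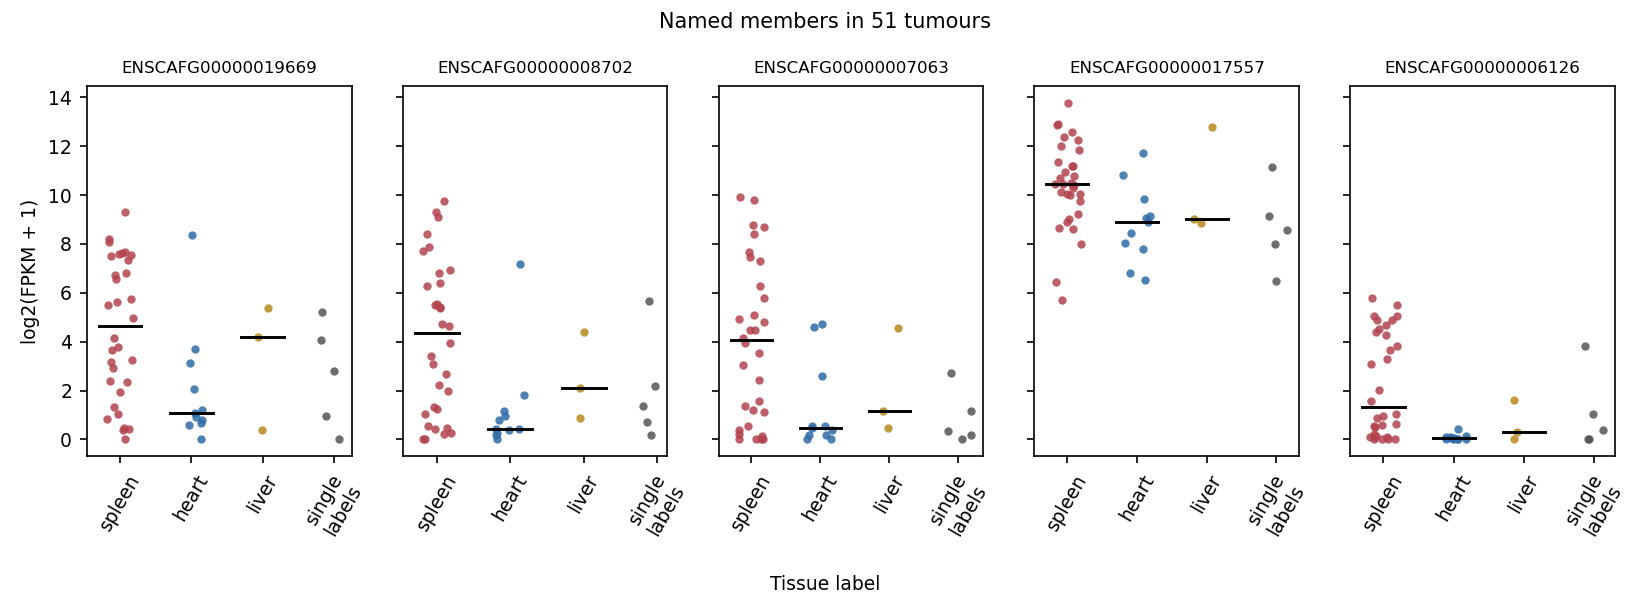
Level of the named genes in each of the 51 tumours as log2(FPKM + 1), by tissue label, with black bars at the group medians. For ENSCAFG00000006126 all cardiac points lie near 0, while ENSCAFG00000017557 is above 50 FPKM in every splenic, cardiac and hepatic tumour.

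Cardiac tumours had lower fitted levels than splenic tumours for nearly all of the 150 genes, but no single gene passed the adjusted threshold. The fitted heart minus spleen difference was negative for 149 of 150 genes, where 50.2% of all genes had a positive difference. The median over the set was -1.04 on the log2(FPKM + 1) scale (range -2.9 to 0.1, SE 0.41 to 1.04), and the median over all genes was 0.001. By limma with Benjamini-Hochberg adjustment, 0 of 150 genes had an adjusted p under 0.05 (smallest 0.147), against 0.155% of all genes (20 genes). At an unadjusted p under 0.05, 70 of 150 (46.7%) were lower in the heart and none higher, against 10.5% of all genes (1358 genes) in either direction and 4.66% lower. The 41-gene group had the larger median difference, -1.7 with 37 genes at that level, and the 94-gene group -0.92 with 31. Because the genes were chosen in these same tumours for varying together, their signs and p-values are not independent observations, here and in every comparison below. The counts at an unadjusted p under 0.05 therefore describe a shared ordering of the tumours. They are no test of the set against all genes.

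The cardiac result depended on the model and on single tumours. With sex, neuter status, breed and age as further terms the median difference was -0.69, and 30 of 150 genes, all lower, had an unadjusted p under 0.05 (smallest adjusted p 0.421), against 6.12% of all genes in either direction and 2.27% lower. With limma's array weights, which give less weight to tumours far from the fitted values, 48 of 150 genes passed the adjusted threshold, all lower in the heart, 31 of them in the 41-gene group and 15 in the 94-gene group (smallest adjusted p 0.00125), against 3.87% of all genes in either direction and 1.78% lower. Without heart 5 no gene passed (smallest adjusted p 0.0765), and the median difference was -1.31. Among tumours with DHSA titles alone the median difference was -1.25, with 82 genes at an unadjusted p under 0.05, all lower, and 0 adjusted calls, against 11.5% of all genes in either direction and 5.51% lower at that unadjusted level.

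**Figure D5:**
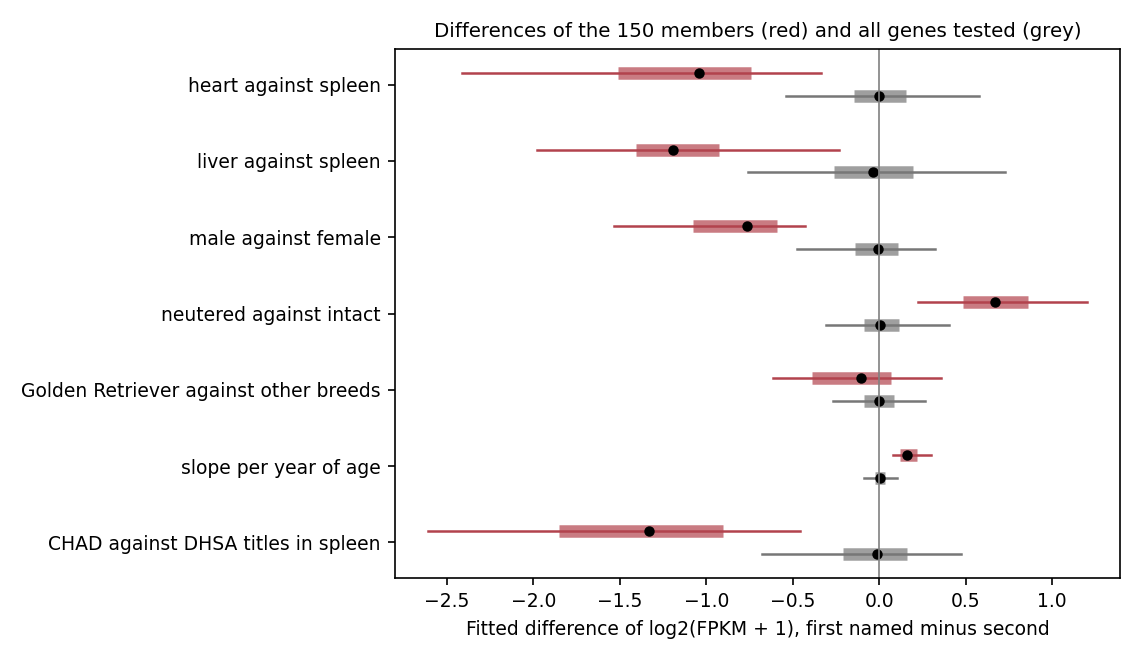
Fitted differences on the log2(FPKM + 1) scale for the 150 genes (red) and all genes tested (grey) in each comparison, with a dot at the median, a thick line over the middle 50% and a thin line over the middle 90%. The red medians lie at -1.04 for heart against spleen and -0.76 for male against female, and the grey medians lie near 0.

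Hepatic tumours, with n = 3, had values below splenic tumours for 147 of 150 genes in the fit, where 45.4% of all genes had a positive difference. The median was -1.19, but the estimates were wide (SE 0.71 to 1.79). By limma 0 of 150 genes passed (smallest adjusted p 0.79) against 0.0% of all genes, and 2 of 150 (1.3%), both lower, had an unadjusted p under 0.05 against 6.04% of all genes (778 genes) in either direction and 2.37% lower. That count depended on the model: it was 31 with array weights, against 7.95% of all genes in either direction and 3.99% lower, and 20 with all covariates, against 7.68% and 3.55%, each time all lower. Among DHSA titles the median was -1.43.

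Tumours from males were lower than those from females for all 150 genes in the fit adjusted for tissue, with a median of -0.76 (range -2.03 to -0.05). Over all genes 48.6% of the differences were positive. No gene passed by limma (smallest adjusted p 0.731), against 0.0% of all genes, while 42 of 150 (28%) had an unadjusted p under 0.05, all lower, against 6.68% of all genes (861 genes) in either direction and 4.46% lower. Of these, 35 were in the 94-gene group and 3 in the 41-gene group, with medians of -0.86 and -0.65; whether the groups differ was not tested. ENSCAFG00000007063 had the most negative value, -2.03 ± 0.85 (SE), with a limma adjusted p of 0.731. By level, splenic tumours of females were at 4.15 ± 1.67 and those of males at 3.05 ± 1.35 (SD, n = 16 each), while cardiac tumours were at 2.4 ± 0.33 (SD, n = 3) and 2.45 ± 1.43 (SD, n = 8). Without heart 5, a male's tumour, the male cardiac mean was 2.02 ± 0.82 (SD, n = 7). Whether the tissues differ by sex was not tested. Among DHSA titles the median was -0.75, with 32 genes at an unadjusted p under 0.05, against 5.28% of all genes in either direction and 3.57% lower.

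Tumours from neutered dogs were higher than those from intact dogs for 148 of 150 genes in the fit, against 51.8% of all genes. The median difference of the set was 0.67. By limma 0 genes passed (smallest adjusted p 0.997) against 0.0% of all genes, and 15 of 150 (10.0%) had an unadjusted p under 0.05, all higher, against 3.38% of all genes (435 genes) in either direction and 1.75% higher. Splenic tumours were at 4.01 ± 1.5 in neutered (SD, n = 20) and 2.92 ± 1.56 in intact dogs (SD, n = 12). Cardiac means lay the other way, at 2.22 ± 0.8 (SD, n = 6) and 2.7 ± 1.64 (SD, n = 5), but this order turned without heart 5, an intact male's tumour, when the intact mean was 2.02 ± 0.65 (SD, n = 4). Among DHSA titles the median was 0.69.

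The Golden Retriever minus other breeds difference had a median of -0.1, with 94 genes negative and 56 positive, where 49.2% of all genes were positive. None of the 150 passed by limma (smallest adjusted p 0.999) against 0.00776% of all genes (1 gene), and 0 had an unadjusted p under 0.05 against 2.34% of all genes (302 genes). Splenic levels were 3.43 ± 1.67 in Golden Retrievers (SD, n = 20) and 3.89 ± 1.49 in other breeds, and cardiac levels were 2.75 ± 1.54 (SD, n = 6) and 2.07 ± 0.6. In the heart the Golden Retriever mean was 2.21 ± 0.87 (SD, n = 5) without heart 5, a Golden Retriever's tumour. The sub-groups parted: the 41 genes had a median difference of -0.48 and the 94 genes of 0.01, which was not tested. Among DHSA titles the median was -0.12.

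With age, the fitted slope was positive for 149 of 150 genes, against 53.6% of all genes. The median slope of the set was 0.16 per year on the log2(FPKM + 1) scale. By limma 0 genes passed (smallest adjusted p 0.719) against 0.0% of all genes, and 9 of 150 (6.0%) had an unadjusted p under 0.05, all higher with age, against 6.85% of all genes (883 genes) in either direction and 3.52% higher. Among DHSA titles the median was 0.19, with 24 of 150 genes at an unadjusted p under 0.05, all higher, against 9.42% of all genes in either direction and 4.96% higher.

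Within the spleen, the 5 tumours with CHAD titles were lower than the 27 with DHSA titles. Mean levels of the 150 genes were 2.4 ± 1.02 (SD, n = 5, from 1.3 to 3.91) and 3.82 ± 1.59 (SD, n = 27, from 1.58 to 6.23), and the ranges overlapped. The fitted CHAD minus DHSA difference had a median of -1.33 (range -3.5 to -0.0), negative for all 150 genes, where 48.1% of all genes were positive. By limma over 12645 genes, 0 of 150 passed (smallest adjusted p 0.963) against 0.0% of all genes, and 45 of 150 had an unadjusted p under 0.05, all lower, against 4.05% of all genes (512 genes) in either direction and 2.51% lower. The count moved with each CHAD tumour: it was 18, 26, 20, 70 and 13 without spleens 1, 2, 3, 4 and 5, where 4.46%, 2.77%, 3.18%, 6.32% and 3.14% of all genes passed in either direction. Of the 45, 34 were in the 41-gene group (median -2.14) and 6 in the 94-gene group (median -1.14). The sub-groups were cut on these same splenic values, so the uneven split is a description, and whether the groups differ was not tested. ENSCAFG00000008702 differed by -3.44 ± 1.35 (SE), with a limma adjusted p of 0.963.

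The 5 tumours with labels of their own took no part in choosing the genes. By mean level the metastatic tumor was the highest of them at 3.64, and 104 of 150 genes exceeded the median of the 46 tumours there. It was higher in the 41 genes (4.33, 39 of 41 above that median) than in the 94 genes (3.05, 52 of 94). The set took 0.62% of summed FPKM there, below 0.8% in the abdominal mass and 0.73% in the tumour of undetermined origin. That share was 0.63% in the cutaneous tumour and 0.59% in the metastatic abdominal mass. In the metastatic tumor the 10 most abundant genes took 24.15% of summed FPKM, and 11717 genes reached 1 FPKM. The metastatic abdominal mass was at 2.67 with 53 genes above the median, the tumour of undetermined origin at 2.37 with 33, the cutaneous tumour at 2.29 with 29 and the abdominal mass at 1.97 with 20. How many of all genes lay above their median in these tumours is not given, so no excess is read from the counts. For ENSCAFG00000008702 the metastatic tumor had 49.511 FPKM, and the other 4 had between 0.141 and 3.559 FPKM. All 5 lay inside the splenic range of mean level, between spleen 5 and spleen 7.

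Single genes of the set went past every one of the 46 tumours in these 5, and they are named here after their values were seen. There were 2 in the tumour of undetermined origin, 2 in the metastatic tumor and 1 under each of the other labels. Below all of the 46 tumours lay 1 gene in the tumour of undetermined origin and 1 in the abdominal mass. The share of all genes outside that range is not given, so no excess is read from these counts. In the tumour of undetermined origin, from a dog of 0.7 years, ENSCAFG00000008386 (rank 15) was at 1218 FPKM, 3.82 times the highest of the 46 tumours (318.9 in heart 5) and against a median of 0.746 FPKM. ENSCAFG00000006126, silent in the heart, was at 13.251 FPKM there. In the metastatic abdominal mass ENSCAFG00000001289 (rank 118, in neither sub-group) was at 362.3 FPKM, 2.5 times the highest of the 46 (144.7 in spleen 20), and in the cutaneous tumour the same gene was at 213.7 FPKM. Its median over the 46 tumours was 39.3 FPKM. The other 4 such values were 1.14 to 1.37 times the highest of the 46 tumours.

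Library properties moved with the level of the set to differing degrees. Over the 46 tumours the mean level had r = 0.51 and rho = 0.53 with the number of other genes at 1 FPKM or more (10509 to 11464 genes), and r = 0.44 without spleen 5 and heart 4. Relative depth, solved from the steps between low FPKM values and ranging from 0.526 to 2.136, had r = -0.27 and rho = -0.31. Without spleens 13 and 18 the correlation was r = -0.38. Spleen 7, the highest tumour, was the shallowest at 0.526, and heart 4, the lowest, was at 1.487. The next tumours at either end lay the other way: spleen 18, at a level of 6.12, had a depth of 1.591, and heart 11, at 1.25, had 0.862. Log2 relative depth was also used as a covariate, chosen after seeing the data. Counts at an unadjusted p under 0.05 were then 62 for heart against spleen (9.3% of all genes) and 40 for sex (6.51%). The count for CHAD titles was 49 (4.52%). The counts moved further for neuter status, to 45 (5.22% of all genes), for age, to 20 (7.91%), and for the liver, to 0 (5.44%). No adjusted call was made. The part of the remaining measures in the results was not tested. The share of summed FPKM taken by the 10 most abundant other genes had r = 0.19, and r = 0.1 without spleens 17 and 27, the tumours farthest out in it. The upper quartile had r = -0.17. No pair of tumours held identical values, and the most similar pair correlated at 0.977 over genes.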

How the data were processed

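RNA from 51 canine hemangiosarcomas was extracted with column kits and made into TruSeq libraries, per the labels' protocols. The authors deposited 1 table of FPKM values per gene and tumour, and the submitters' processing notes name FastQC 0.11.2, TopHat 1.4.1, Cuffdiff and CanFam 3.1. Read counts were not used here, and FPKM removes absolute depth; relative depth between tumours was solved from 2070 low genes, where 99.9% of pairwise estimates lay within 0.05 log2 of the solved depths, though a median of only 9.1% of low genes lay at the shared step. FPKM values depend on Cuffdiff's gene models, and shared reads between similar genes cannot be resolved.

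Values were analysed as log2(FPKM + 1), pseudocount 1, which understates changes of low genes. Differences were fitted with limma 3.58.1 (R 4.3.3; empirical Bayes with a mean trend, two-sided, Benjamini-Hochberg over all 12887 genes, or 12645 within the spleen), calling an adjusted p under 0.05; the scripts were tested on simulated data. Tissue fits used the spleen, heart and liver labels; sex, breed and age fits carried tissue as a term, and the neuter status fit tissue and sex. The labels do not state that tumours came from separate dogs, so p-values measure the spread between samples. Python 3.11.15 with numpy 2.4.6, scipy 1.17.1 and pandas 2.3.3 did the rest.

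The members and the gene lists were chosen with earlier results of these data known. Named genes are loading ranks 1 and 2, the last gene inside and the first outside the set, the most abundant member, the member with the smallest heart against spleen p and any member past the adjusted threshold; others are stated as picked after their values were seen. Of 16382 identifiers, 0 matched the symbol table, so the marker lists could not be scored and no sequences are given.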

Additional observations from a re-analysis of the deposited data

Results flagged for a closer look

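Among 8 sets of values examined for a tumour far from its group, on the log2(FPKM + 1) scale, 2 stood out, both in the 5 splenic tumours with CHAD titles. For ENSCAFG00000017557, spleen 3 was at 87.216 FPKM and the other 4 at 1040.3 to 1397.67 FPKM, and the gap was 0.893 of the group's range. For ENSCAFG00000006126, spleen 4 was at 28.89 FPKM and the other 4 at 0.059 to 0.958 FPKM, a gap of 0.816 of the range. Chance passes this limit in about 1 of 20 groups. Neither gene passed the adjusted threshold between CHAD and DHSA titles by limma.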

How the results depend on the processing

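Adjusted calls among the 150 genes were 0 in all 7 comparisons under every alternative tried except array weights, which gave 48 for heart against spleen. Counts at an unadjusted p under 0.05 moved more, and each is given with the share of all genes at that level in the same fit. For heart against spleen the count of 70 (10.5%) became 30 with all covariates (6.12%), and 54 (8.81%, without heart 4) to 103 (14.1%, without heart 5) with 1 cardiac tumour left out. For liver against spleen 2 (6.04%) became 31 with array weights (7.95%), 20 with all covariates (7.68%), 6 without CHAD titles (6.44%), 0 with depth as a covariate (5.44%) and 0 (6.89%, without liver 1) to 5 (7.15%, without liver 3) with 1 hepatic tumour left out. For sex 42 (6.68%) became 26 with all covariates (6.11%). For neuter status 15 (3.38%) became 24 with a pseudocount of 0.1 (3.76%), 55 with array weights (8.07%), 45 with depth as a covariate (5.22%) and 9 without spleens 17 and 27 (4.82%). For breed 0 (2.34%) became 13 with array weights (4.77%). For age 9 (6.85%) became 0 with all covariates (5.75%), 24 without CHAD titles (9.42%), 20 with depth as a covariate (7.91%) and 2 without spleens 17 and 27 (6.06%). For CHAD against DHSA titles 45 (4.05%) became 13 (3.14%, without spleen 5) to 70 (6.32%, without spleen 4).

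Median differences kept their sign in every comparison except breed, where they ran from -0.18 to 0.04. They ran from -1.41 to -0.69 for heart against spleen and from -1.04 to -0.66 for male against female. Of the 150 genes, 31 were kept when genes were scaled to unit variance and 66 when the rule was applied to the heart alone; the cause was not tested. Other alternatives kept 106 (pseudocount 0.1) to 149 (median-ratio scaling), and leaving out 1 tumour kept 132 (spleen 19) to 150. Depth as a covariate, leaving out spleens 17 and 27, and cardiac levels without heart 5 were chosen after seeing the data. No paired analysis was possible because replicate numbers only follow accession order and the tumours of different tissues share no label.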
